A study of Mus musculus with 6 samples.

Results

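RNA-seq expression values of 10 BCL2 family genes were examined in bone marrow-derived macrophages (BMDMs) after co-culture with neutrophils. The genes were all rows of the deposited expression table whose symbol was *Bcl2*, *Bcl2l1*, *Bcl2a1a*, *Bcl2a1b*, *Bcl2a1d*, *Mcl1*, *Bcl2l11*, *Bbc3*, *Pmaip1* or *Bax*. These were 10 of 55335 gene identifiers, and all 10 passed the filter on low values (0.5 FPKM or more on average) that left 13367 genes for testing. FPKM, a fragment count divided by gene length and by library depth, is a level per length, so that levels of different genes can be set side by side.

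The study asked how neutrophils that carry or lack CD177, a surface protein of mature neutrophils, act on macrophages after spinal cord injury (SCI). There were 6 libraries, 3 in each of 2 groups. In both groups the sequenced cells were BMDMs of *Cd177* WT genotype, grown from mouse marrow for 7 days with M-CSF and then kept for 24 h with neutrophils. In the first group the neutrophils came from the spinal cord lesion of *Cd177* WT mice at 3 days post injury (dpi), and in the second from the lesion of *Cd177* KO mice at the same time. The neutrophils were enriched with magnetic beads. All mice were male according to the methods. The section on mice gives C57BL/6 and an age of 8 weeks for the purchased adult mice. It states neither strain nor age for the *Cd177* KO mice. The paper mentions sorting of BMDMs by FACS in its inhibitor experiments with this co-culture, but its RNA-seq methods do not mention sorting. There was no library of BMDMs cultured without neutrophils, so each difference is between the 2 co-cultures. The labels do not say whether the 3 libraries of a group came from separate cultures or animals, and the p-values measure the spread between these libraries, which may be technical.

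The BCL2 family decides whether the outer mitochondrial membrane stays intact. Pro-survival proteins (BCL2, BCL-XL, MCL1 and A1) hold the pore-forming effectors BAX and BAK in check, and BH3-only proteins (such as BIM, PUMA and NOXA) bind the pro-survival proteins or the effectors and so favour the release of cytochrome c. In macrophages and neutrophils, *Bcl2a1* is an inducible target of NF-kB, and MCL1 is a protein of rapid turnover on which many myeloid cells depend.

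The level of *Cd177* itself went against the labels. The 3 libraries labelled KO held it at 1.79, 1.84 and 2.28 FPKM, above the 0.544, 0.309 and 0.521 FPKM of the 3 labelled WT. The BMDMs were *Cd177* WT in both groups, and which cells this RNA came from was not tested. Summed neutrophil markers were also higher in the KO-labelled libraries, as given below. The conflict between this level and the labels was not resolved, and the groups are called WT-labelled and KO-labelled throughout. Every direction given for a gene rests on these labels. Correlations of log2 values between libraries were 0.967 to 0.985 within groups and 0.905 to 0.917 between groups, and the second principal component, with 13.5% of the variance, set the replicate 3 library of each group apart from the others. The deposited table holds no counts. An estimate from the smallest steps of low values gave 17.6 to 20.3 fragments per kilobase at 1 FPKM, but only 46.6 to 51.9% of these values lay near a whole number of reads, so counts could not be recovered. All 12 macrophage markers on a fixed list passed the filter, with summed levels of 7273 to 8751 FPKM in WT-labelled and 8398 to 9224 FPKM in KO-labelled libraries. Among them *Csf1r*, the M-CSF receptor, was not called (log2 fold change 0.11), *Cd14*, a co-receptor for lipopolysaccharide, was at 1010 and 99.4 FPKM and *Mrc1*, the mannose receptor, at 28.0 and 221 FPKM in the group means. Most of the summed level was *Lyz2* alone, at 4922 and 6144 FPKM in the group means.

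Signs of other cells differed between the groups and are given here because they touch every gene below. Of 20 neutrophil markers 14 passed the filter, but *Cxcr2*, *Cebpe* and *Cd177* did so only through the KO-labelled libraries, so no count of calls is given. The summed level of the 20 was 203.7 to 263.6 FPKM in WT-labelled and 562.1 to 577.4 FPKM in KO-labelled libraries. Much of it was *S100a8* (64.9 and 104 FPKM in the group means), *S100a9* (90.5 and 234) and *Ngp* (12.9 and 107). The markers did not all rise. *Mmp8* was at 21.9 and 9.80 FPKM in the group means, and *Elane* and *Ctsg*, with means under 0.5 FPKM, were also lower on average. The other markers had higher means in KO-labelled libraries. *Ly6g*, which defines mouse neutrophils, was listed at 0 in all WT-labelled libraries and at 0.660, 0.547 and 0.403 FPKM in the KO-labelled ones. Summed B cell markers were 5.59 to 7.63 FPKM against 20.1 to 21.2 FPKM, with *Ighm* at 0.247 and 9.88 FPKM, *Cd79b* at 0.822 and 4.10 FPKM and *Ebf1* at 0.833 and 1.58 FPKM in the group means, and *Cd79a*, *Ms4a1* and *Pax5* at or near 0 in every library. Summed T cell markers were 2.03 to 2.56 FPKM against 5.69 to 7.23 FPKM, of which *Cd4* made up 1.76 and 5.56 FPKM in the group means, and *Cd3d* was listed at 0 throughout. Dendritic cell markers summed to 28.2 to 44.7 FPKM against 53.3 to 67.0 FPKM, nearly all of it *Itgax*, and *Flt3* was listed at 0 throughout. Other genes of that list were low and moved both ways in the group means. *Clec9a* (0.541 and 0.0526 FPKM), *Xcr1* (0.271 and 0.0757) and *Ccr7* (0.0834 and 0) were lower in KO-labelled libraries. *Batf3* (0.338 and 1.25) and *Zbtb46* (0.113 and 0.306) were higher. The paper's RNA-seq methods do not say whether the macrophages were sorted, and the part of such cells in the results was not tested. In bulk RNA, fewer cells of a type and less RNA per cell cannot be told apart.

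*Bcl2a1* encodes A1, a pro-survival protein induced by inflammatory signals, and the mouse carries several near-identical copies of it on chromosome 9. The coding sequences show how alike the copies are, which bears on how far their values can be separated. Each of *Bcl2a1a*, *Bcl2a1b* and *Bcl2a1d* has 519 coding bases in 2 coding exons of the GENCODE M21 annotation. *Bcl2a1a* differed from *Bcl2a1b* at 11 bases (97.9% identity), *Bcl2a1a* from *Bcl2a1d* at 7 (98.7%) and *Bcl2a1b* from *Bcl2a1d* at 6 (98.8%), and the longest stretch without any difference was 314 bases, between *Bcl2a1a* and *Bcl2a1d*. Over the 3 copies 12 positions differed, and 7 of these lay in the opening 120 bases of the coding sequence. Those stretches are shown 5′ to 3′ from the start codon, at chr9:88957051-88957170 on the plus strand for *Bcl2a1a*, chr9:89199360-89199479 on the plus strand for *Bcl2a1b* and chr9:88731600-88731719 on the minus strand for *Bcl2a1d* (GRCm38), with the positions at which the copies are not all alike in capitals.
Bcl2a1a: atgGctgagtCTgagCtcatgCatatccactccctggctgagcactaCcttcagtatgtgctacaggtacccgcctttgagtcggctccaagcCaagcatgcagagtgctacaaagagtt
Bcl2a1b: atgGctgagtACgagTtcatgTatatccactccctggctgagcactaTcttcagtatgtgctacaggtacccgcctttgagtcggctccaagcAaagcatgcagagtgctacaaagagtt
Bcl2a1d: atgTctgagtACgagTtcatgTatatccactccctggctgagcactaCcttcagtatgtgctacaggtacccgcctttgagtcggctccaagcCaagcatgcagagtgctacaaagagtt
The parts of the transcripts outside the coding sequence were not compared. Within it, a read that covers none of the positions that differ fits all 3 copies. How the authors' counting treated such reads is not given in the sources used here, so each copy's own value is uncertain and their sum is given as well. *Bcl2a1b* also overlaps the annotated gene *Gm29094* on the same strand and *Bcl2a1d* overlaps *Gm10634* on the opposite strand, and whether counting used strand is not stated.

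All 3 copies also have closely similar promoter sequence around 1 AP-1 motif (TGANTCA, either strand), a binding motif of FOS and JUN factors. It was the only one of 5 motifs searched that had a match in the RefSeq promoters of these copies. The windows around that match are shown with the motif in capitals (GRCm38.p6), at chr9:88956740-88956866 on the plus strand, chr9:89199049-89199175 on the plus strand and chr9:88731898-88732024 on the minus strand.
Bcl2a1a: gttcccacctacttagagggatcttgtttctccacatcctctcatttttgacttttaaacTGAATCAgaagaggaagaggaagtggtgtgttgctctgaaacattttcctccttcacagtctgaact
Bcl2a1b: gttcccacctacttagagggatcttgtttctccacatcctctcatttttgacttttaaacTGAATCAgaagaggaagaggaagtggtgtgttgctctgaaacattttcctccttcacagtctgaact
Bcl2a1d: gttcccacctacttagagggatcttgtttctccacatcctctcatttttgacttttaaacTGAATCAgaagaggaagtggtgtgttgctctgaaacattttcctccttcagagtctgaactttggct
The *Bcl2a1d* window lacks a few bases just after the motif. *Bcl2a1a* and *Bcl2a1b* have the same letters throughout this window, although their measured differences between the groups, below, were not alike. The AP-1 motif stood in 7.81% of 32851 mouse promoters of that length. Among the other members whose promoters were searched, *Bcl2l1* and *Bbc3* had 3 promoters each. For both genes, only 1 of the 3 held a match to the kappaB consensus of NF-kB. Of all promoters 4.51% held it, which is a share per promoter and not per gene. A p53 half-site stood in the promoter of *Bax* (8.36%). *Bcl2*, *Mcl1* and *Bcl2l11* had no match to any of these, to the CRE motif (TGACGTCA, 1.79%) or to the ISRE core (3.44%), which says only that those letters are not in the windows searched. *Pmaip1* was not searched. A match is a description and not a binding site.

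Of the 10 genes, 6 were called different between the groups by limma at a Benjamini-Hochberg adjusted p under 0.05, 3 higher and 3 lower in KO-labelled libraries. Over all tested genes 37.6% were called, 27.1% as higher and 10.5% as lower, so a share of 6 in 10 stands beside a background in which more than 1 gene in 3 was called. Higher were *Bcl2* and the BH3-only genes *Bcl2l11* and *Bbc3*, and lower were *Mcl1*, *Bcl2a1a* and *Bcl2a1d*. The 2 groups did not overlap for 7 of the 10, against 51.9% of all tested genes. The median log2 fold change over the 10 was -0.23, beside 0.19 over all tested genes. That median of all genes depends on scaling. With median-of-ratios scaling it was -0.01, the calls over all genes split into 2044 higher and 2263 lower in place of 3619 and 1408, and those over the 10 genes into 2 higher and 5 lower. With quantile normalization the split over all genes was 2426 and 1928.

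**Figure D1:**
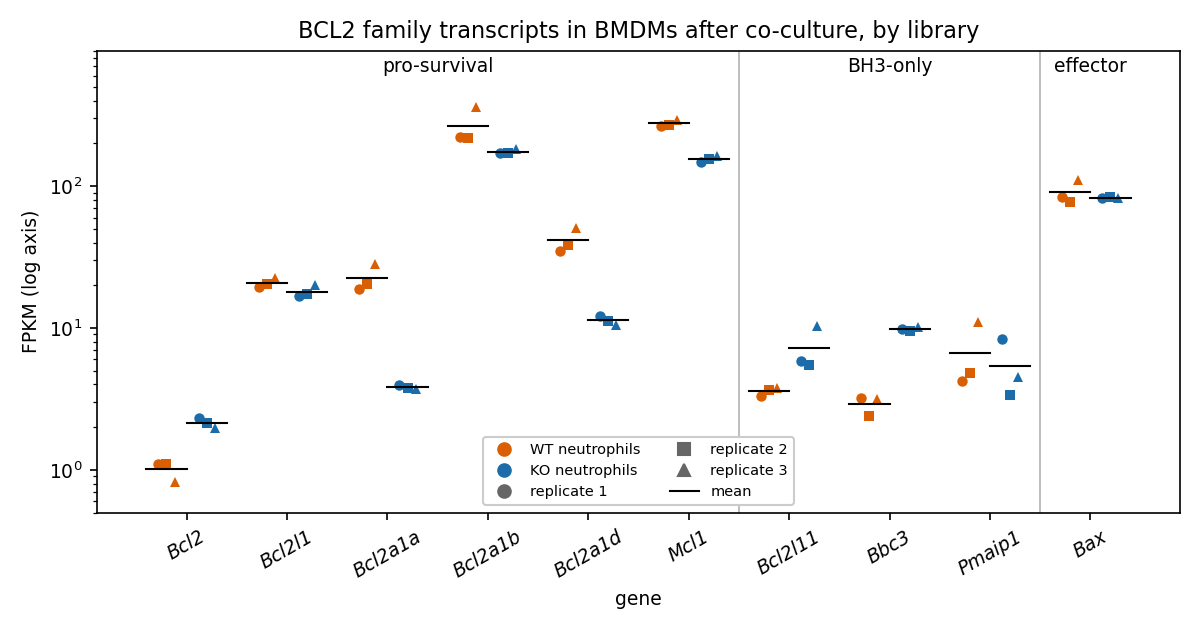
FPKM of the 10 BCL2 family genes in each of the 6 libraries on a log axis, with WT-labelled libraries in orange, KO-labelled ones in blue, a symbol for each replicate number and a line at the group mean. *Bcl2*, *Bcl2l11* and *Bbc3* are higher in all 3 blue libraries, *Mcl1* and the 3 *Bcl2a1* copies are lower in all 3, and the colours overlap for *Bcl2l1*, *Pmaip1* and *Bax*.

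*Mcl1* (ENSMUSG00000038612, chr3:95658788-95663176, plus strand) encodes MCL1, a pro-survival protein, and had the highest mean level of the 10 in the WT-labelled libraries, where its range overlapped that of *Bcl2a1b*. It was at 266, 269 and 295 FPKM there and at 149, 155 and 162 FPKM in the KO-labelled libraries. All 3 KO-labelled libraries were below the lowest WT-labelled one. The group means, 277 ± 15.9 and 155 ± 6.49 FPKM (SD, n = 3), differed 1.78-fold, with a log2 fold change of -0.83 (SE 0.08, limma, Benjamini-Hochberg adjusted p = 0.000419). It kept the call under all 19 alternatives, with log2 fold changes from -1.06 to -0.77.

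*Bcl2a1b* (ENSMUSG00000089929, chr9:89199209-89207827, plus strand) carried most of the *Bcl2a1* signal. Its FPKM were 222, 217 and 362 in WT-labelled and 171, 171 and 184 in KO-labelled libraries. The groups did not overlap, but replicate 3 of the WT-labelled libraries stood far above the other two, and the gene was not called (log2 fold change -0.56, SE 0.20, 95% interval -1.04 to -0.09, limma adjusted p = 0.0640 after Benjamini-Hochberg). Without that library the log2 fold change was -0.32 and the adjusted p 0.00958, and over all alternatives the adjusted p ran from 0.00244 to 0.155.

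*Bcl2a1a* (ENSMUSG00000102037, chr9:88956900-88962419, plus strand) had the largest fall of the 10. It was at 18.8, 20.4 and 28.1 FPKM in WT-labelled and at 3.99, 3.75 and 3.73 FPKM in KO-labelled libraries, far from any overlap. This was a 5.86-fold lower mean, with a log2 fold change of -2.38 (SE 0.16, limma, Benjamini-Hochberg adjusted p = 6.82e-05). *Bcl2a1d* (ENSMUSG00000099974, chr9:88723285-88731914, minus strand) was at 34.7, 38.5 and 51.0 FPKM in WT-labelled and at 12.2, 11.2 and 10.5 FPKM in KO-labelled libraries. Again no library of one group reached into the other, and the mean was 3.65-fold lower (log2 fold change -1.81, SE 0.15, adjusted p = 0.000212). The 95% intervals of both lay below that of *Bcl2a1b* and did not meet it (-2.75 to -2.02 for *Bcl2a1a* and -2.17 to -1.45 for *Bcl2a1d*), but the difference between copies was not tested.

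The sum over the 3 copies rests less on how shared reads were divided than each copy does, but would still change if such reads were dropped or counted more than once. It was 275, 276 and 441 FPKM in WT-labelled and 187, 186 and 198 FPKM in KO-labelled libraries, and the groups did not overlap. The sum fell by 0.76 on the log2 scale (SE 0.19, 95% interval -1.20 to -0.31, limma, Benjamini-Hochberg adjusted p = 0.0195), a 1.73-fold lower mean. Without replicate 1 or replicate 2 of the KO-labelled libraries the adjusted p was 0.0634 and 0.0640, and over all alternatives it ran from 0.000644 to 0.0640. *Bcl2a1b* made up 80.4 ± 1.71% of the sum in WT-labelled and 92.0 ± 0.736% in KO-labelled libraries (SD, n = 3). The share of *Bcl2a1a* went from 6.86% to 2.01% and that of *Bcl2a1d* from 12.7% to 5.96%, and every library of one group was on one side of every library of the other for all 3 shares. Neutrophils also express *Bcl2a1* and *Mcl1*, and the part of neutrophil RNA in both results was not tested. *Bcl2a1c*, a further copy, was near 0 in all libraries and did not pass the filter.

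**Figure D2:**
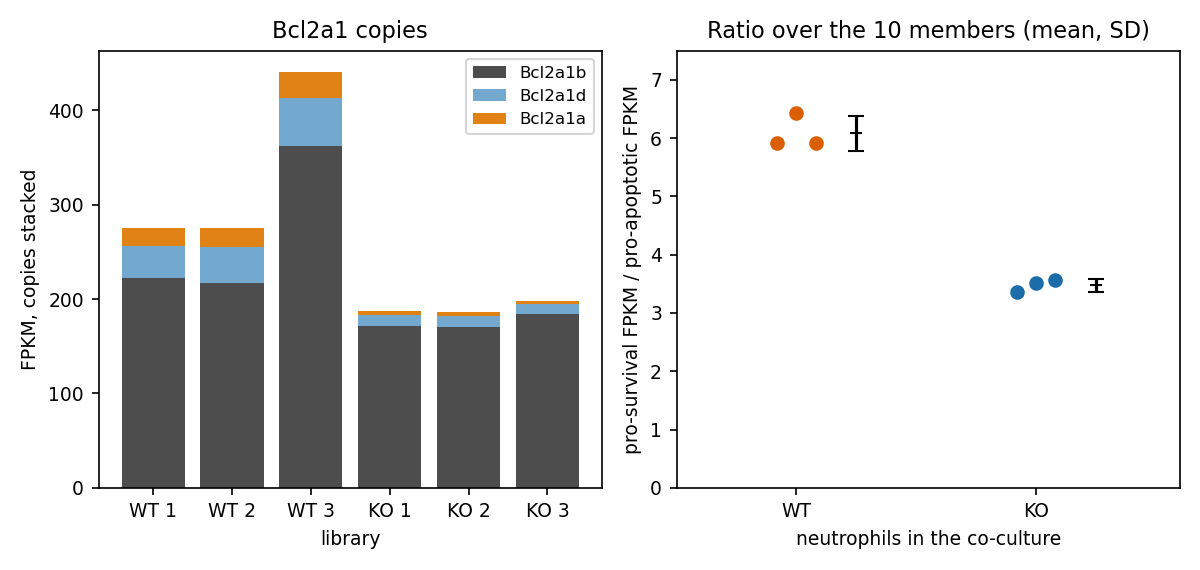
Left, FPKM of the *Bcl2a1* copies stacked for each library (WT 1 to KO 3), from 0. Right, the ratio of summed pro-survival to summed pro-apoptotic FPKM over the 10 genes, 1 point per library with the group mean and SD, which runs from 5.91 to 6.44 in WT-labelled and from 3.35 to 3.57 in KO-labelled libraries.

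*Bcl2* (ENSMUSG00000057329, chr1:106538178-106714274, minus strand), the founding pro-survival gene, was the lowest of the 10 in both groups and moved the other way. It was at 1.11, 1.10 and 0.825 FPKM in WT-labelled and 2.34, 2.13 and 1.96 FPKM in KO-labelled libraries. All KO-labelled libraries were above all WT-labelled ones. The mean was 2.12-fold higher (1.01 ± 0.160 and 2.14 ± 0.187 FPKM, SD, n = 3), with a log2 fold change of 0.81 (SE 0.13, limma, Benjamini-Hochberg adjusted p = 0.00358). *Bcl2* kept the call in each of the 18 alternatives that tested it, and a filter at a mean of 5 FPKM removed it. B and T lymphocytes express much *Bcl2*, and their summed markers moved in the same direction, as given above. Their part in this result was not tested.

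*Bcl2l1* (ENSMUSG00000007659, chr2:152780668-152831728, minus strand) encodes BCL-XL, and its short isoform is pro-apoptotic, which a value per gene does not separate. Levels were 19.6, 20.4 and 22.6 FPKM in WT-labelled and 16.8, 17.3 and 20.0 FPKM in KO-labelled libraries, so that the groups overlapped. The log2 fold change of -0.21 (SE 0.10, 95% interval -0.45 to 0.04) did not pass the test (limma, Benjamini-Hochberg adjusted p = 0.158), and over all alternatives the adjusted p ran from 0.0286 to 0.389. It was under 0.05 with median-of-ratios scaling (log2 fold change -0.43, adjusted p = 0.0298) and without both replicate 3 libraries (-0.22, adjusted p = 0.0286), the latter an alternative chosen after seeing the data.

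*Bbc3* (ENSMUSG00000002083, chr7:16308393-16318205, plus strand) encodes PUMA, a BH3-only protein that binds all pro-survival members and is a classical target of p53 and FOXO3. It had the largest rise of the 10. Levels were 3.19, 2.39 and 3.16 FPKM in WT-labelled and 9.90, 9.47 and 10.1 FPKM in KO-labelled libraries. These 2 sets were well apart, with means of 2.91 ± 0.452 and 9.83 ± 0.340 FPKM (SD, n = 3). The mean was 3.37-fold higher, with a log2 fold change of 1.61 (SE 0.12, limma, Benjamini-Hochberg adjusted p = 0.000135), and the call held under all 19 alternatives.

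*Bcl2l11* (ENSMUSG00000027381, chr2:128126038-128162547, plus strand) encodes BIM, a BH3-only protein that sets the lifespan of many blood cells. It was at 3.34, 3.67 and 3.76 FPKM in WT-labelled and at 5.86, 5.51 and 10.3 FPKM in KO-labelled libraries. No KO-labelled library fell into the WT range, and replicate 3 of the KO-labelled libraries was far above the other two. The log2 fold change was 0.87 (SE 0.23, limma, Benjamini-Hochberg adjusted p = 0.0231). The call was lost without replicate 1 (adjusted p = 0.0712) or replicate 2 (0.0579) of the WT-labelled libraries, with median-of-ratios scaling (0.0724), with quantile normalization (0.0720) and with no filter on low values (0.0616), while the log2 fold change stayed between 0.60 and 1.02 over all alternatives, whose adjusted p ran from 0.00547 to 0.0724.

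*Pmaip1* (ENSMUSG00000024521) encodes NOXA, a BH3-only protein that binds MCL1 and A1. Its levels, 4.21, 4.79 and 11.0 FPKM in WT-labelled and 8.31, 3.36 and 4.53 FPKM in KO-labelled libraries, were scattered within both groups and overlapped. The log2 fold change was -0.25 with a 95% interval of -1.24 to 0.75 (limma, Benjamini-Hochberg adjusted p = 0.677), which leaves room for a change of more than 2-fold downward. Without replicate 3 of the WT-labelled libraries it was 0.154, and without replicate 2 of the KO-labelled ones 0.0157.

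*Bax* (ENSMUSG00000003873, chr7:45461697-45466898, minus strand), the pore-forming effector, was by far the most abundant pro-apoptotic transcript of the 10. It was at 84.3, 77.1 and 110.5 FPKM in WT-labelled and at 82.0, 84.4 and 82.1 FPKM in KO-labelled libraries. The groups overlapped, and the log2 fold change of -0.11 (SE 0.14, 95% interval -0.44 to 0.21) was not called (limma, Benjamini-Hochberg adjusted p = 0.555). Its sign rested on 1 library, and without replicate 3 of the WT-labelled libraries it was 0.038.

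**Figure D3:**
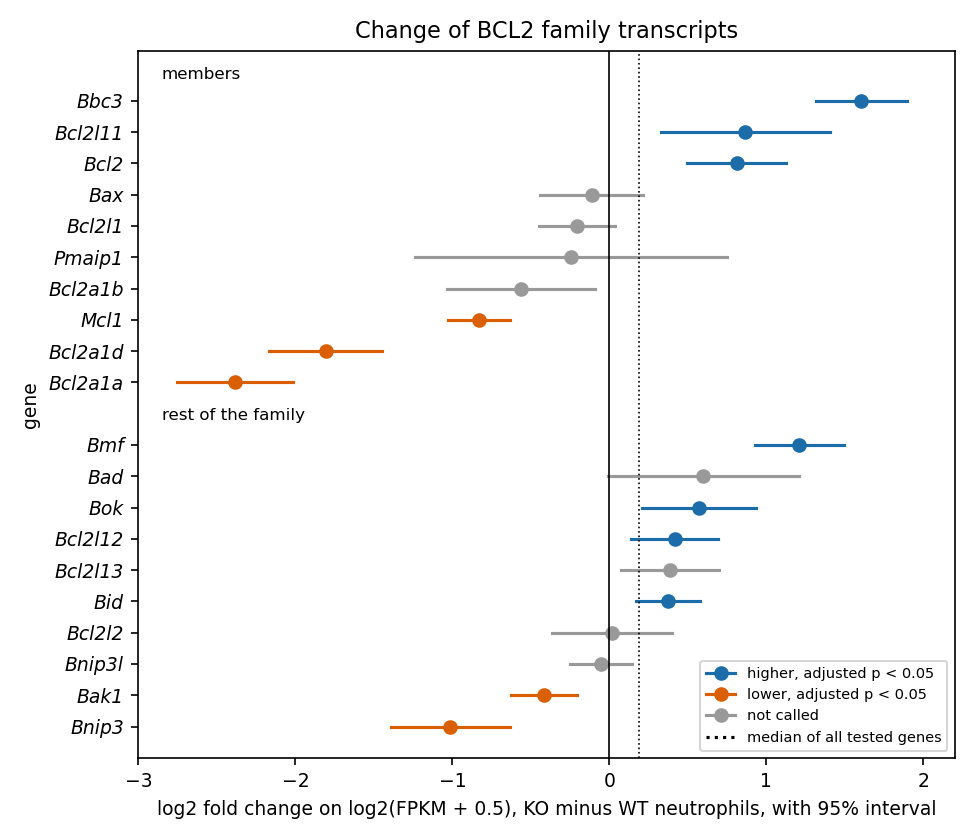
Log2 fold changes on log2(FPKM + 0.5), KO-labelled minus WT-labelled, with 95% intervals, for the 10 genes (top) and the 10 tested other members of the family (bottom). Blue genes were called higher, orange genes lower and grey genes were not called, and the dotted line marks the median of all tested genes at 0.19. The points run from -2.38 for *Bcl2a1a* to 1.61 for *Bbc3*.

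*Mcl1*, *Bcl2a1b* and *Bax* had the highest levels per length in both groups. In WT-labelled libraries the mean levels fell from *Mcl1* (277 FPKM) over *Bcl2a1b* (267), *Bax* (90.7), *Bcl2a1d* (41.4), *Bcl2a1a* (22.4), *Bcl2l1* (20.8), *Pmaip1* (6.66), *Bcl2l11* (3.59) and *Bbc3* (2.91) to *Bcl2* (1.01). *Mcl1* and *Bcl2a1b*, and *Bcl2a1a* and *Bcl2l1*, could not be ordered there, since their ranges over the libraries overlapped. In KO-labelled libraries *Bcl2a1b* (175 FPKM) stood above *Mcl1* (155), *Bax* (82.8), *Bcl2l1* (18.0) and *Bcl2a1d* (11.3). *Bbc3* (9.83), *Bcl2l11* (7.23), *Pmaip1* (5.40) and *Bcl2a1a* (3.83) followed, each overlapping its neighbour, and *Bcl2* (2.14) was last.

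Summed over genes, pro-survival transcripts were lower in KO-labelled libraries and pro-apoptotic transcripts were at a similar level. No test was made of these sums, since the genes were chosen. The pro-survival sum was 562, 566 and 759 FPKM in WT-labelled and 356, 360 and 382 FPKM in KO-labelled libraries. The pro-apoptotic sum was 95.1, 87.9 and 128 FPKM against 106, 103 and 107 FPKM, which overlapped. Their ratio was 5.91, 6.44 and 5.91 in WT-labelled and 3.35, 3.51 and 3.57 in KO-labelled libraries, with means of 6.09 ± 0.303 and 3.48 ± 0.112 (SD, n = 3). *Bax* made up 87.5 ± 1.33% of the pro-apoptotic sum in WT-labelled and 78.7 ± 2.99% in KO-labelled libraries, so the ratio mostly set pro-survival transcripts against *Bax*. With *Bax* left out, a choice made after seeing the data, the ratio was 49.0 ± 5.67 and 16.6 ± 2.67. Leaving out the *Bcl2a1* copies gave 2.93 and 1.67, and leaving out *Mcl1* gave 3.37 and 2.00, so the gap did not rest on either alone. Together they were nearly the whole pro-survival sum. *Mcl1* made up 44.6% of it in WT-labelled and 42.4% in KO-labelled libraries, and the *Bcl2a1* copies 51.9% and 52.1%. The ratio without both was not taken. The ratio of *Mcl1* to *Bcl2l11*, whose proteins bind each other, was 79.8, 73.2 and 78.4 against 25.4, 28.1 and 15.7. *Bcl2* contributed 0.167% of the pro-survival sum in WT-labelled and 0.587% in KO-labelled libraries, so its rise added little to the sum. These are ratios of transcripts, and protein was not measured here.

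The rest of the family was read from a list of 16 further genes, of which 10 passed the filter. Of these 4 were higher, 2 were lower and 4 were not called, beside 27.1% higher and 10.5% lower over all tested genes, and the median log2 fold change was 0.38 beside 0.19. *Bmf*, a BH3-only gene, went from 1.54 ± 0.180 to 4.23 ± 0.395 FPKM (log2 fold change 1.21, limma, Benjamini-Hochberg adjusted p = 0.000412). *Bnip3*, a mitochondrial protein of hypoxia and mitophagy, went from 47.7 ± 6.58 to 23.5 ± 4.38 FPKM (-1.01, adjusted p = 0.00317). *Bok*, an effector-like member, rose by 0.57 on the log2 scale (adjusted p = 0.0257), and *Bak1*, the effector that works beside BAX, fell from 41.7 ± 3.36 to 31.1 ± 1.34 FPKM (-0.42, adjusted p = 0.0110). The other 2 called genes, named here after their values were seen, were *Bid* (0.37), a BH3-only protein that caspase-8 cleaves, and *Bcl2l12* (0.42). *Bad*, a BH3-only gene, was not called (0.60, adjusted p = 0.111). *Hrk* and *Bcl2l14* were listed at 0 in every library. With median-of-ratios scaling, and equally without replicate 1 of the KO-labelled libraries, 1 of the 10 was called higher and 2 lower.

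The genes that act at or after the mitochondrial step were next. Of 15 genes on that list, all tested, 3 were higher and 1 lower, no larger a share than the 37.6% called over all tested genes, and the median log2 fold change was 0.13 beside 0.19. *Casp6*, an executioner caspase, rose by 0.63 (limma, Benjamini-Hochberg adjusted p = 0.0139), *Dffa*, the inhibitor of the caspase-activated DNase, by 0.62 (0.00255) and *Vdac1*, a channel of the outer mitochondrial membrane, by 0.36 (0.0202). *Cycs*, cytochrome c, fell from 22.7 ± 3.06 to 15.5 ± 1.46 FPKM (-0.53, adjusted p = 0.0158). With median-of-ratios scaling 1 was called higher and 1 lower.

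Of the IAP family, which blocks caspases or senses bacteria, 8 of 9 genes were tested, and 2 were higher and 3 lower, beside 27.1% and 10.5% of all tested genes. The median log2 fold change was -0.02, beside 0.19. *Birc5*, survivin, which also serves in cell division, went from 2.06 ± 0.468 to 6.20 ± 0.312 FPKM (1.40, limma, Benjamini-Hochberg adjusted p = 0.000527). *Naip2* and *Naip5*, which are sensors of bacterial proteins in the inflammasome rather than death inhibitors in the narrow sense, fell by 1.32 (0.000523) and 0.40 (0.0198). *Xiap*, the direct caspase inhibitor, rose by 0.32 (adjusted p = 0.0459), and *Birc3*, an NF-kB target, fell by 0.30 (0.0336). The *Naip* genes form a family of related copies, whose sequences were not compared here, and their values may be uncertain where reads were shared. With median-of-ratios scaling the calls were 1 higher and 3 lower, and without replicate 1 or 2 of the WT-labelled libraries or replicate 1 of the KO-labelled ones they were 1 higher and 1 lower.

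*Trp53* and its targets, a list of 16 genes that includes no BCL2 member, had 10 of 15 tested genes higher and 1 lower, beside 27.1% and 10.5% of all tested genes. The median log2 fold change was 0.63, beside 0.19. *Trp53* itself was not called (17.2 and 19.7 FPKM, adjusted p = 0.112). *Sesn1*, an antioxidant and growth-restraining protein, was at 3.88, 3.07 and 4.07 FPKM in WT-labelled and 39.0, 39.8 and 43.8 FPKM in KO-labelled libraries. That is an 11.1-fold higher mean (log2 fold change 3.31, limma, Benjamini-Hochberg adjusted p = 5.02e-06). *Trp53inp1*, a stress protein of autophagy, rose by 1.39 (9.91e-05), *Gdf15*, a stress cytokine, by 1.12 (0.00260) and *Ccng1*, cyclin G1, by 0.84 (0.000367). *Mdm2*, the ubiquitin ligase that removes p53, was the lower gene, at 43.0 ± 0.953 and 25.4 ± 0.227 FPKM (-0.75, adjusted p = 0.000345). *Cdkn1a*, the cell cycle inhibitor p21, was not called (-0.21, adjusted p = 0.0680). *Mdm2* and *Cdkn1a* were singled out after their values were seen. With median-of-ratios scaling the calls were 8 higher and 2 lower.

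The NF-kB list of 14 genes, most of them survival or feedback genes, had 9 lower, none higher and 5 not called, beside 10.5% lower and 27.1% higher over all tested genes. *Cd40*, counted among the 9, passed the filter only through the WT-labelled libraries (2.43 and 0.478 FPKM in the group means). A filter at a mean of 5 FPKM removed it and left 11 genes, 8 lower and none higher. Over all 6835 genes tested with that filter, 983 were lower and 1756 higher. The median log2 fold change was -0.55, beside 0.19. *Sod2*, the mitochondrial superoxide dismutase, was at 26.9, 26.3 and 31.9 FPKM in WT-labelled and 6.98, 6.63 and 6.79 FPKM in KO-labelled libraries (-1.98, limma, Benjamini-Hochberg adjusted p = 2.14e-05). *Ier3*, an immediate early gene, fell by 1.80 (0.000114), *Cd40*, a co-stimulatory receptor, by 1.59 (0.000394) and *Tnfaip3*, the feedback inhibitor A20, by 1.08 (0.00509). The transcription factor genes *Nfkb1* and *Nfkb2* were not called, at 8.33 and 8.85 FPKM and at 15.8 and 16.9 FPKM. Under every alternative the list held no gene called higher and between 8 and 12 called lower. *Birc3* is on this list and on that of the IAP family.

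A last list held 14 genes that set the levels of MCL1 or BIM, of which 12 were tested, 2 were higher and 1 lower, a smaller share than the 37.6% called over all tested genes. The median log2 fold change was 0.21, beside 0.19. *Foxo3*, a transcription factor that induces *Bcl2l11* and *Bbc3*, went from 6.26 ± 1.04 to 15.5 ± 1.24 FPKM (1.25, limma, Benjamini-Hochberg adjusted p = 0.000638). *Mapk3*, the kinase ERK1, which marks BIM for degradation, rose by 0.65 (0.00336), and *March5*, a mitochondrial ubiquitin ligase that limits MCL1, fell by 0.55 (0.00556). The same 2 and 1 counts were found under every alternative.

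**Figure D4:**
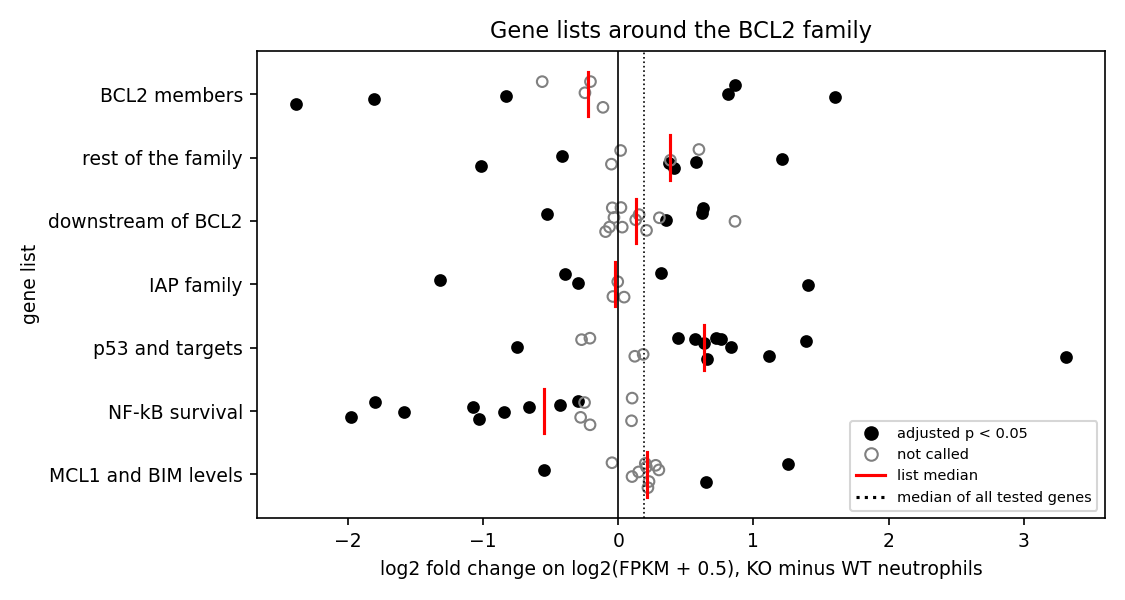
Log2 fold changes on log2(FPKM + 0.5), KO-labelled minus WT-labelled, of every tested gene in 7 lists, filled where limma's adjusted p was under 0.05. Red bars are list medians, from -0.55 for the NF-kB list to 0.63 for p53 and its targets, and the dotted line is the median of all tested genes at 0.19.

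Genes whose pattern over the 6 libraries was most like that of a BCL2 gene were found by the root mean square difference of log2 values after centring each gene. Closest to the *Bcl2a1* sum were *Txn1* (0.0508 on the log2 scale), a thioredoxin at 333, 323 and 508 FPKM in WT-labelled and 206, 204 and 234 FPKM in KO-labelled libraries, *Tmem251* (0.0770) and *Psma5* (0.0773), a proteasome subunit. Like the *Bcl2a1* sum, these were highest in replicate 3 of the WT-labelled libraries. For *Mcl1* they were *Adora2b* (0.0242), an adenosine receptor, *Gpsm2* (0.0331) and *Prkcsh* (0.0418), and for *Bcl2* they were *Sec14l1* (0.0337), *Cmtm4* (0.0343) and *Xpc* (0.0352), a DNA repair gene. With 6 libraries in 2 groups, any gene with a similar difference between the groups can come close.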

How the data were processed

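The deposited table gives FPKM per gene identifier for 6 libraries, as made by the authors. The submitters' processing notes list fastp 0.17.1, HISAT2 2.1.0, DESeq2 1.18.1 and R 3.4.3 without roles; the quantifier, annotation and genome build are not given in the sources used here. RNA, library and sequencing products differ between the labels and the methods. Symbols and positions came from GENCODE M21 (GRCm38) for 99.7% of identifiers, and promoters from RefSeq (GRCm38.p6), for 9 of the 10 genes.

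FPKM are not counts, so the authors' DESeq2 test could not be repeated. Genes averaging 0.5 FPKM or more were log2-transformed after adding 0.5 and compared between groups in limma 3.58.1 under R 4.3.3 (empirical Bayes with a trend, two-sided, group only), with p-values adjusted by Benjamini-Hochberg over 13367 genes; fold changes on this scale understate those of low genes. The *Bcl2a1* sum was tested in the same fit with the 3 rows replaced by their sum. Of each list the 4 called genes with the largest changes were named. The test was checked on simulated data. Figures were drawn with matplotlib 3.10.9. 1 marker gene is not reported here. The genes and lists were chosen with earlier results of these data known. Alternatives were other pseudocounts, filters, scalings and variance settings, the replicate number as a block, leaving out each library and, added later, leaving out both replicate 3 libraries. FPKM carry no depth, so no counting intervals are given.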

Additional observations from a re-analysis of the deposited data

How the results depend on the processing

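Of 189 values of the 10 genes under alternatives, 171 kept their direction and their side of the threshold, 5 lost the call, 8 gained it and 5 changed sign. The calls of *Mcl1*, *Bcl2a1a*, *Bcl2a1d* and *Bbc3* held under all 19 alternatives and that of *Bcl2* under the 18 that tested it. The changes of sign were in *Pmaip1*, which was not called (0.154 without replicate 3 of the WT-labelled libraries, 0.0157 without replicate 2 of the KO-labelled ones, 0.225 without both replicate 3 libraries, and from -0.579 to 0.154 over the libraries left out in turn), and in *Bax*, also not called (0.0380 without replicate 3 of the WT-labelled libraries, 0.0443 without both replicate 3 libraries, and from -0.221 to 0.0380 in turn). The number of the 10 genes called ran from 5 to 8, and that of genes on the other lists from 29 to 41. The *Bcl2a1* sum had the same log2 difference, -0.76, but an adjusted p of 0.0575 with no filter, when 28101 genes were tested; leaving out each library in turn gave log2 differences from -0.87 to -0.53. With a mean of at least 5 FPKM, 2739 of 6835 tested genes were called (1756 higher and 983 lower), in place of 5027 of 13367. The log2 difference of the pro-survival to pro-apoptotic ratio was -1.57 without *Bax*, in place of -0.81. Leaving out both replicate 3 libraries, and leaving out *Bax*, were chosen after seeing the data. The cause of these changes was not tested.

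Whether the replicate numbers pair the libraries is not known. Same-numbered libraries had correlations of deviations of 0.116, 0.036 and 0.264, and only the replicate 3 libraries correlated best with each other. With 3 libraries a group, these values cannot decide it. With a replicate block 5934 genes were called in place of 5027, and *Bcl2a1b* passed the threshold (log2 fold change -0.56, adjusted p = 0.0302). FPKM without counts give no counting error, so the precision of single values is unknown. With 3 libraries a group, an exact permutation test of 1 value could not reach below 0.1.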
